A study of Mus musculus with 7 samples.

Results

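Chromatin remodellers are ATP-driven protein complexes that slide, evict or exchange nucleosomes and so set how open the DNA of a gene is. The 34 genes described here encode subunits of the SWI/SNF, INO80 and ISWI families and members of the CHD family, and they were measured in quadriceps femoris muscle of mice with a mutant Twinkle transgene and of wild-type mice. Every probe set of the array that the platform annotation assigns to 1 symbol among these genes was taken, which gave 75 probe sets of 45101 in the table and at least 1 for each of the 34 genes, of 18193 genes named in this way. They comprise 39 probe sets of 17 SWI/SNF genes, 15 of 9 INO80 genes, 5 of 2 ISWI genes and 16 of 6 CHD genes. The list was chosen by measured values of this same comparison, in which 1 probe set of Ino80d and 1 of Smarca4 were higher in mutant muscle. The values of these leading probe sets are therefore a description without a test, and the question is how far the other probe sets and the other subunits share them.

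The mutant group comprised 3 mice, aged 24, 24 and 21 months, that overexpress a mutant form of Twinkle, the helicase of mitochondrial DNA. The 4 wild-type mice were 26, 24, 21 and 23 months old, and each mouse gave 1 single-colour Affymetrix array of total RNA. The labels describe the arrays as biological replicates, and they give neither the promoter of the transgene, the number of founder lines nor the sex of the animals. The line models progressive external ophthalmoplegia, a mitochondrial muscle disease. The free-text descriptions name cerebellum, but all 10 measured muscle fibre markers lay in the highest level class of the table and 0 of 9 measured cerebellum markers did. Twnk, the gene of the transgene, measured -0.15, 0.44 and 0.00 in mutant and 0.34, -0.13, -0.14 and 0.15 in wild type, so its 1 probe set did not separate the groups.

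Every value is a log2 difference from the median of its own probe set over the 7 arrays, as deposited. Such values show differences between arrays and hold no level, so genes and probe sets cannot be ranked by abundance. A rough level class was recovered from the spacing of the deposited numbers. For 8 of the 75 member probe sets the lowest of the 7 arrays lay at 8 or above on the log2 scale. It lay from 4 to 8 in 51, and from 2 to 4 in the remaining 16, the lowest class. Mutant replicate 2 and wild-type replicates 1 and 4 resembled each other over the whole table. Their pairwise Pearson correlations were 0.36 to 0.49 over 45037 probe sets. Each correlated negatively with every one of the other 4 arrays, but centring on the median by itself tends to push correlations below 0. Both groups are present on each side of this division, so for probe sets the text turns on the difference is also given within these 3 arrays and within the other 4. Where all mutant arrays lie above all wild-type arrays, the sign of such a difference is fixed in advance. The same holds when 1 array is left out, so there only the size is described.

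SWI/SNF remodellers are built around an ATPase, either Smarca4 or Smarca2, with core scaffold subunits and with accessory subunits that define the canonical, polybromo and non-canonical forms. In skeletal muscle they are known for opening the promoters of muscle genes together with the myogenic transcription factors, for which Smarcd3 is the best-known bridging subunit. INO80 moves nucleosomes and exchanges histone variants with the help of the paired AAA ATPases Ruvbl1 and Ruvbl2. ISWI enzymes space nucleosomes evenly, and Chd3 and Chd4 are the ATPases of the NuRD repressor complex.

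Of the 75 member probe sets, 5 had their 3 mutant arrays without exception above the 4 wild-type arrays, and 0 lay below in the same sense. They belong to Smarca4, Smarcc1, Ino80d, Chd2 and Chd4, 5 different genes. Over all 45037 probe sets without controls, 1.06% lay above in this way and 1.02% below. Since the same contrast led to the choice of the genes, the members' share of 6.67% is given as a description, and without the leading pair it was 3 of 73, or 4.11%. In limma's fit across 45037 probe sets, 0 members had a Benjamini-Hochberg adjusted p under 0.05, where the whole table had 0.0% past that threshold and every adjusted p was 1.00. By the unadjusted p, at a threshold of 0.05, there were 6 members higher and 0 lower in mutant muscle, against 1.19% higher and 0.782% lower in the whole table. Without the leading pair 4 of 73 were higher, and since the contrast was used in the choice nothing is read from this count. By this test no remodeller passed, so what follows describes measured differences. Among all 75 members 49 differences were positive (47.4% of the whole table were), with a median of 0.05, and they ran from -0.51 to 1.02.

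**Figure D1:**
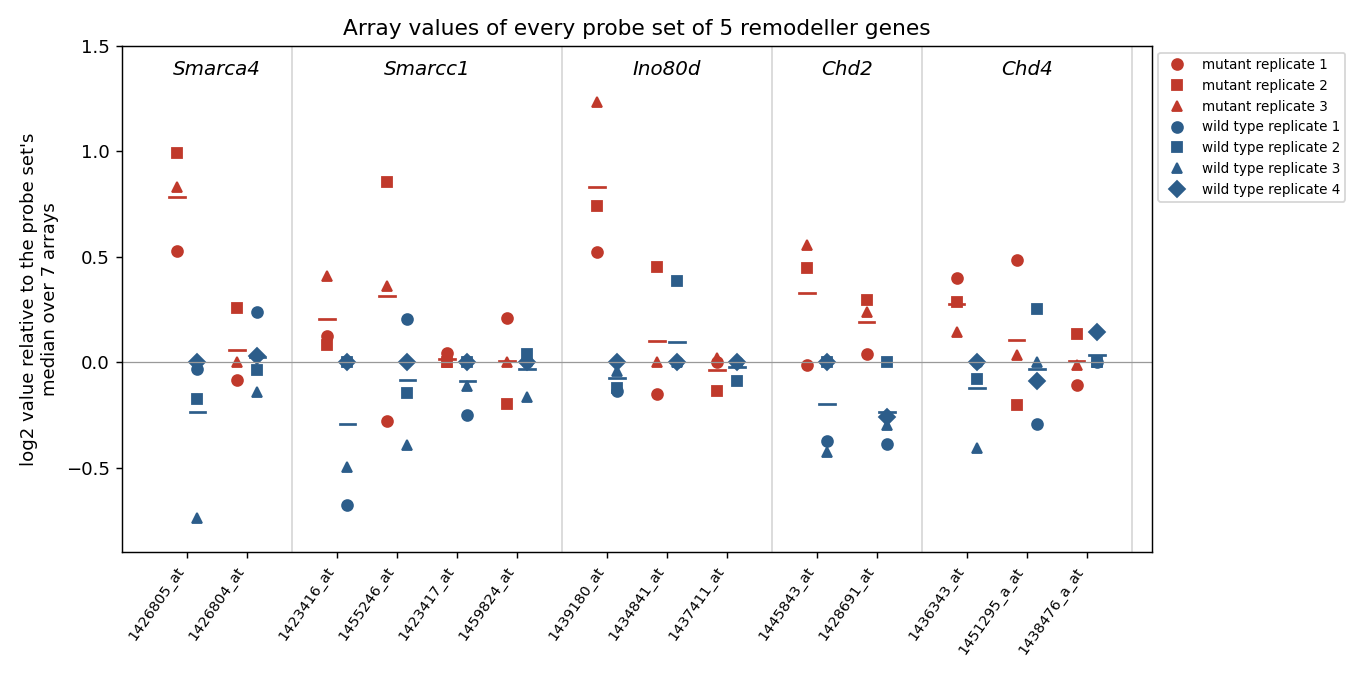
Log2 values relative to the probe set's median over 7 arrays (vertical axis) for every probe set of Smarca4, Smarcc1, Ino80d, Chd2 and Chd4, with mutant arrays in red, wild-type arrays in blue, marker shapes for replicates and bars for group means. In Smarca4 and Ino80d the leftmost probe set separates the groups, while the mutant and wild-type arrays overlap in the others of the same gene.

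Smarca4, the ATPase of SWI/SNF, was read by 2 probe sets that gave different pictures. Probe set 1426805_at, in the highest level class, measured 0.53, 0.99 and 0.83 in mutant and -0.03, -0.17, -0.74 and 0.00 in wild type. Every mutant array lay above every wild-type array, and wild-type replicate 3 was the lowest. The difference was 1.02 ± 0.20 (SE), or 2.03-fold, from means of 0.78 ± 0.24 (SD, n = 3) and -0.24 ± 0.35 (SD, n = 4). Probe set 1426804_at measured -0.08, 0.26 and 0.00 in mutant and 0.24, -0.04, -0.14 and 0.03 in wild type. These groups overlapped fully, and the difference was 0.04 ± 0.12 (SE).

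The gap between the probe sets can be read within each array, where the RNA is the same. The first minus the second was 0.61, 0.74 and 0.83 in mutant and -0.27, -0.14, -0.60 and -0.03 in wild type. It was positive in every mutant array and negative in every wild-type array. The gap holds the values for which 1426805_at was chosen, so this separation is a description. Because the groups do not overlap in 1426805_at, its difference had to be positive on each side of the division among the arrays. Only its size is described. The difference was 1.01 within the 3 arrays that stood apart, 1.14 within the other 4 and 1.09 with this division as a block. Leaving out 1 array at a time gave 0.85 to 1.15, with the lowest value without wild-type replicate 3. Averaged over its probe sets, Smarca4 as a gene differed by 0.53.

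The upstream sequences of Smarca4 and Smarcc1 are shown because these SWI/SNF subunits each had a probe set without overlap and 1 annotated start in the RefSeq promoter table of build GRCm38.p6. Each is the 250 bases before the start, 5′ to 3′ on the plus strand, at chr9:21615919-21616168 and chr9:110131774-110132023. Capitals mark every GC box, GGGCGG or its reverse complement CCGCCC, a motif bound by Sp-family factors.
Smarca4: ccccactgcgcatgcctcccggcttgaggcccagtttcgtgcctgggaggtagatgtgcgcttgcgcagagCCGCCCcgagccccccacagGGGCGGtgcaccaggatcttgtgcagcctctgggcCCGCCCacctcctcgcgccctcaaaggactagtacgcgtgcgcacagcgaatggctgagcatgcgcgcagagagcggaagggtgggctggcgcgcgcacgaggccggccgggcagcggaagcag
Smarcc1: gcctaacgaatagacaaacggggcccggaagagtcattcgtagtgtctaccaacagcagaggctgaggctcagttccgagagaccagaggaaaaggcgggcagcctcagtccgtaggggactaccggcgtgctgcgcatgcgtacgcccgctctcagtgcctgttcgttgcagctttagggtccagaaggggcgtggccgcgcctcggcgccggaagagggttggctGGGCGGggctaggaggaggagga
Smarca4 has 3 GC boxes in this window and Smarcc1 has 1. Of the 34 member genes 24 have an entry in the table, with 28 windows, and 23 of these windows (82.1%) hold a GC box on either strand, against 32.7% of all 32851 windows. TGATGNAA, the element of the stress factor ATF4 with its partners, is in 0 of the 28 windows and in 3.45% of all. The other letters searched on both strands were TGACGTCA, the cAMP response element, in 0 of the 28 and 1.55% of all, CCGGAAG, an ETS element, in 5 and 6.91%, CCAAT in 8 and 33.8%, and CACGTG, an E box, in 2 and 6.02%. A match describes these letters and is not a measured binding site. A promoter serves every probe set of its gene that reads the same transcript, so these letters do not separate 1426805_at from 1426804_at.

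Ino80d, an accessory subunit of INO80, was read by 3 probe sets, of which only 1439180_at separated the groups. It measured 0.52, 0.74 and 1.24 in mutant and -0.14, -0.12, -0.04 and 0.00 in wild type. The wild-type arrays lay within a narrow band and the lowest mutant array was well above it. The difference was 0.91 ± 0.16 (SE), or 1.88-fold, from means of 0.83 ± 0.37 (SD, n = 3) and -0.08 ± 0.07 (SD, n = 4). It was 0.81 within the 3 arrays that stood apart, 0.96 within the other 4 and 0.90 with this division as a block, and 0.71 to 1.06 when 1 array was left out. Mutant replicate 3, the highest array, gave the lowest of these values when left out. Without overlap the positive sign of all these differences was given in advance.

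The other Ino80d probe sets did not follow. Probe set 1434841_at measured -0.15, 0.45 and 0.00 in mutant and 0.00, 0.39, 0.00 and 0.00 in wild type, a difference of 0.00 ± 0.17 (SE). Probe set 1437411_at, in the lowest level class, measured 0.00, -0.14 and 0.02 in mutant and 0.00, -0.09, 0.00 and 0.00 in wild type, a difference of -0.02 ± 0.08 (SE). In each, a mutant array lay above the wild-type range and another below it, so there was no shared direction and the groups overlapped. Within each array, 1439180_at minus the mean of the other 2 was 0.60, 0.58 and 1.23 in mutant and -0.14, -0.27, -0.04 and 0.00 in wild type. This gap too holds the values for which 1439180_at was chosen, so it is a description. The mean over all 3 probe sets differed by 0.30 and the mean without 1437411_at by 0.46. The sources used here do not state which part of the Ino80d or Smarca4 transcript each probe set reads.

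The remaining subunits of INO80 did not share the higher value of 1439180_at. Ino80 itself, the ATPase, lay lower in mutant muscle in both of its probe sets. Probe set 1418125_at measured 0.00, -0.41 and -0.19 in mutant and 0.10, 0.13, -0.19 and 0.10 in wild type, a difference of -0.23 ± 0.13 (SE). Wild-type replicate 3 lay inside the mutant range, at the value of mutant replicate 3. The difference was -0.51 within the 3 arrays that stood apart, -0.06 within the other 4 and -0.13 without mutant replicate 2. Probe set 1448965_at measured -0.23, -0.25 and 0.02 in mutant and 0.00, 0.09, -0.25 and 0.00 in wild type, and it differed by -0.11 ± 0.12 (SE). Limma's adjusted p was 1.00 for both.

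The AAA ATPases were close to 0 with wide errors. Ruvbl1 measured -0.22, 0.20 and 0.20 in mutant and -0.07, 0.28, -0.50 and 0.00 in wild type, a difference of 0.13 ± 0.20 (SE) that was -0.01 without wild-type replicate 3. Ruvbl2 differed by 0.06 ± 0.38 (SE) and split the arrays along the division named above, at -0.76, -0.80 and -0.89 in the 3 arrays that stood apart and 0.00 to 0.31 in the other 4. The actin-related proteins Actr5 and Actr8 and the subunits Ino80b, Ino80c and Ino80e, 8 probe sets in all, differed by -0.11 to 0.09. Over the 15 INO80 probe sets 8 differences were positive and 7 negative, with a median of 0.00, against a median of -0.01 over all 45037 probe sets.

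Among the core scaffold subunits of SWI/SNF, Smarcc1 had 1 probe set of 4 without overlap. Probe set 1423416_at measured 0.12, 0.08 and 0.41 in mutant and -0.68, 0.00, -0.50 and 0.00 in wild type. The groups did not overlap, but the gap between the lowest mutant and the highest wild-type array was small and wild-type replicates 1 and 3 carried most of the difference. That difference was 0.50 ± 0.20 (SE), or 1.41-fold, with 0.37 to 0.60 when 1 array was left out, 0.42 within the 3 arrays that stood apart and 0.52 within the other 4 (limma adjusted p = 1.00). A second probe set, 1455246_at, measured -0.28, 0.86 and 0.36 in mutant and 0.21, -0.15, -0.39 and 0.00 in wild type. Its difference of 0.40 ± 0.27 (SE) came with overlapping groups and was 0.12 without mutant replicate 2. The other 2 probe sets, both in the lowest level class, differed by 0.10 and 0.03. Smarcc2, the paralogous scaffold, differed by 0.09 ± 0.25 (SE), and Smarcb1, a small core subunit, by -0.10 to 0.15 over 3 probe sets.

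**Figure D2:**
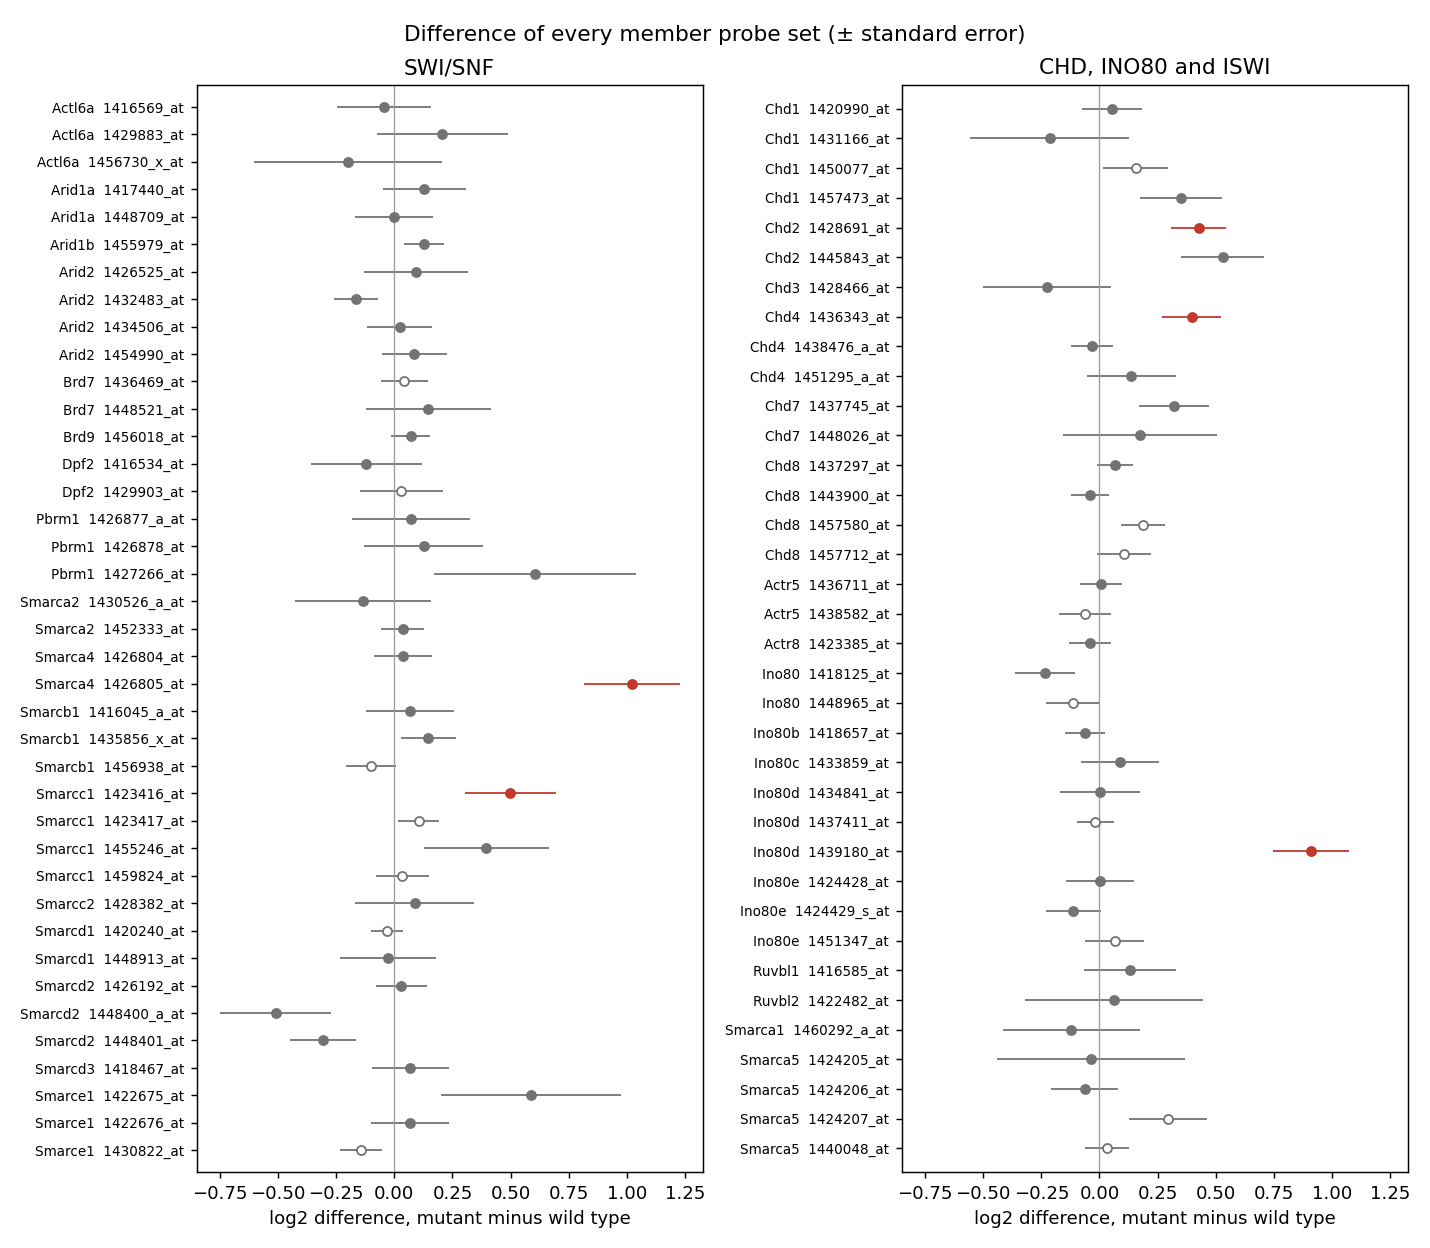
Log2 difference, mutant minus wild type, with limma's standard error (horizontal axis) for all 75 member probe sets, SWI/SNF on the left and CHD, INO80 and ISWI on the right. Red marks the 5 probe sets whose mutant arrays all lie above the wild-type arrays, and open circles mark the 16 whose lowest array lies between 2 and 4 on the log2 scale. Most intervals include 0, and differences of the same gene often lie on both sides of it.

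Smarca2, the alternative ATPase to Smarca4, did not differ in the same way. Probe set 1452333_at measured 0.11, 0.00 and -0.11 in mutant and 0.04, -0.17, 0.00 and 0.00 in wild type, a difference of 0.04 ± 0.09 (SE). Probe set 1430526_a_at differed by -0.13 ± 0.29 (SE) and was high in the 3 arrays that stood apart, at 0.55, 0.35 and 0.32, against -0.54 to 0.00 in the other 4.

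The Smarcd subunits, which connect SWI/SNF to transcription factors, included the largest negative differences of the list. Smarcd2 probe set 1448400_a_at measured -0.88, 0.15 and -0.67 in mutant and 0.12, -0.16, 0.22 and 0.00 in wild type. Mutant replicate 2 lay inside the wild-type range, and the other mutant arrays lay far below it. The difference was -0.51 ± 0.24 (SE), -0.82 without mutant replicate 2 and -0.31 without mutant replicate 1, and it was 0.09 within the 3 arrays that stood apart (limma adjusted p = 1.00). Probe set 1448401_at measured 0.01, -0.41 and -0.08 in mutant and 0.00, 0.21, 0.37 and 0.00 in wild type, a difference of -0.31 ± 0.14 (SE) that was -0.18 without mutant replicate 2. The third Smarcd2 probe set differed by 0.03 ± 0.11 (SE). It fell in the highest level class, but most of its arrays were tied at 0.00, so that class was read from few values. Averaged over all probe sets as a gene, Smarcd2 differed by -0.26. Smarcd1 differed by -0.03 in both of its probe sets. Smarcd3, the muscle-enriched member, measured -0.07, 0.00 and 0.23 in mutant and -0.30, 0.34, 0.05 and -0.16 in wild type, a difference of 0.07 ± 0.17 (SE).

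Smarce1 and Pbrm1 had the largest differences after the 2 leading probe sets, and in each case a few wild-type arrays carried them. Smarce1, a DNA-binding subunit with an HMG box, measured 0.41, -0.03 and 0.30 in mutant and -0.96, 0.53, 0.00 and -1.02 in wild type in probe set 1422675_at. The low arrays were wild-type replicates 1 and 4, both of the 3 that stood apart, and the difference of 0.59 ± 0.39 (SE) was 0.09 within the other 4 arrays. The other Smarce1 probe sets differed by 0.07 and -0.14. Pbrm1, the polybromo subunit, measured -0.28, 0.51 and 0.00 in mutant and 0.00, -0.63, -1.64 and 0.14 in wild type in probe set 1427266_at. Its difference of 0.60 ± 0.43 (SE) was 0.24 without wild-type replicate 3, and the other 2 probe sets differed by 0.07 and 0.13.

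Accessory subunits that define the forms of SWI/SNF lay near 0. The probe sets of Arid1a, Arid1b and Arid2, the large DNA-binding subunits, differed by -0.16 to 0.13. Brd7 and Brd9, bromodomain proteins of the polybromo and non-canonical forms, differed by 0.04 to 0.15, and the PHD-finger protein Dpf2 by -0.12 and 0.03. Actl6a, an actin-related protein that SWI/SNF shares with INO80, differed by -0.20 to 0.21 over 3 probe sets. Probe set 1456730_x_at measured 1.03, 1.13 and 0.61 in the 3 arrays that stood apart and -0.29 to 0.00 in the other 4, in mutant and wild type alike. Over the 39 SWI/SNF probe sets 27 differences were positive and 12 negative, with a median of 0.07.

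The CHD family held the remaining probe sets without overlap and the highest median of the 4 families, at 0.15 over 16 probe sets. Chd2, an ATPase found at active genes, measured higher in both of its probe sets. Probe set 1428691_at measured 0.04, 0.29 and 0.24 in mutant and -0.39, 0.00, -0.30 and -0.26 in wild type, without overlap. The difference was 0.43 ± 0.12 (SE), or 1.34-fold, and 0.37 to 0.51 when 1 array was left out. It was 0.62 within the 3 arrays that stood apart and 0.29 within the other 4. Probe set 1445843_at measured -0.01, 0.45 and 0.56 in mutant and -0.37, 0.00, -0.42 and 0.00 in wild type. Here mutant replicate 1 lay just below the highest wild-type arrays, and the difference was 0.53 ± 0.18 (SE). Limma's adjusted p was 1.00 for both, and as a gene Chd2 differed by 0.48.

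Chd4, the ATPase of NuRD, again depended on the probe set. Probe set 1436343_at measured 0.40, 0.28 and 0.14 in mutant and 0.00, -0.08, -0.41 and 0.00 in wild type, without overlap. Its difference of 0.40 ± 0.13 (SE) was 0.30 to 0.46 when 1 array was left out, 0.28 within the 3 arrays that stood apart and 0.51 within the other 4. Probe sets 1451295_a_at and 1438476_a_at differed by 0.14 ± 0.19 (SE) and -0.03 ± 0.09 (SE), with overlapping groups, and the mean over all 3 differed by 0.17. Chd3, its paralogue in NuRD, measured 0.27, -0.39 and 0.00 in mutant and -0.28, 0.32, 0.79 and -0.09 in wild type. The difference of -0.22 ± 0.27 (SE) was -0.02 without wild-type replicate 3.

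Chd1, which reads histone H3 methylated at lysine 4, had 4 probe sets with differences from -0.21 to 0.35. The highest, 1457473_at, measured -0.13, 0.43 and 0.47 in mutant and 0.08, -0.09, -0.36 and 0.00 in wild type, and the lowest, 1431166_at, measured -0.44, 0.43 and -0.34 in mutant and 0.84, 0.00, -0.53 and 0.08 in wild type. The groups overlapped in each, and the difference of 1431166_at turned to 0.03 without wild-type replicate 1. Chd7, a developmental remodeller, differed by 0.32 ± 0.15 (SE) in probe set 1437745_at and by 0.17 ± 0.33 (SE) in 1448026_at. The second value turned to -0.11 without wild-type replicate 3, which measured -0.96. Chd8 differed by -0.04 to 0.19 over 4 probe sets.

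The ISWI ATPases lay on either side of 0. Smarca1 measured -0.80, 0.03 and 0.00 in mutant and 0.04, -0.64, -0.34 and 0.38 in wild type, a difference of -0.12 ± 0.30 (SE). It turned to 0.15 without mutant replicate 1 and to 0.05 without wild-type replicate 4. Smarca5, the more widely expressed ISWI ATPase, had differences from -0.06 to 0.29 over 4 probe sets. The lowest, 1424206_at, measured -0.36, 0.00 and 0.06 in mutant and -0.07, 0.17, 0.02 and -0.27 in wild type. Next to the highest, 1440048_at measured 0.06, 0.00 and 0.00 in mutant and -0.20, 0.00, 0.08 and 0.07 in wild type. The highest, 1424207_at in the lowest level class, measured 0.00, 0.14 and 0.32 in mutant and -0.01, -0.56, -0.07 and 0.08 in wild type, and the groups overlapped in each. Its difference was 0.16 without wild-type replicate 2, and that of 1424206_at turned to 0.07 without mutant replicate 1. The median over the 5 ISWI probe sets was -0.04.

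**Figure D3:**
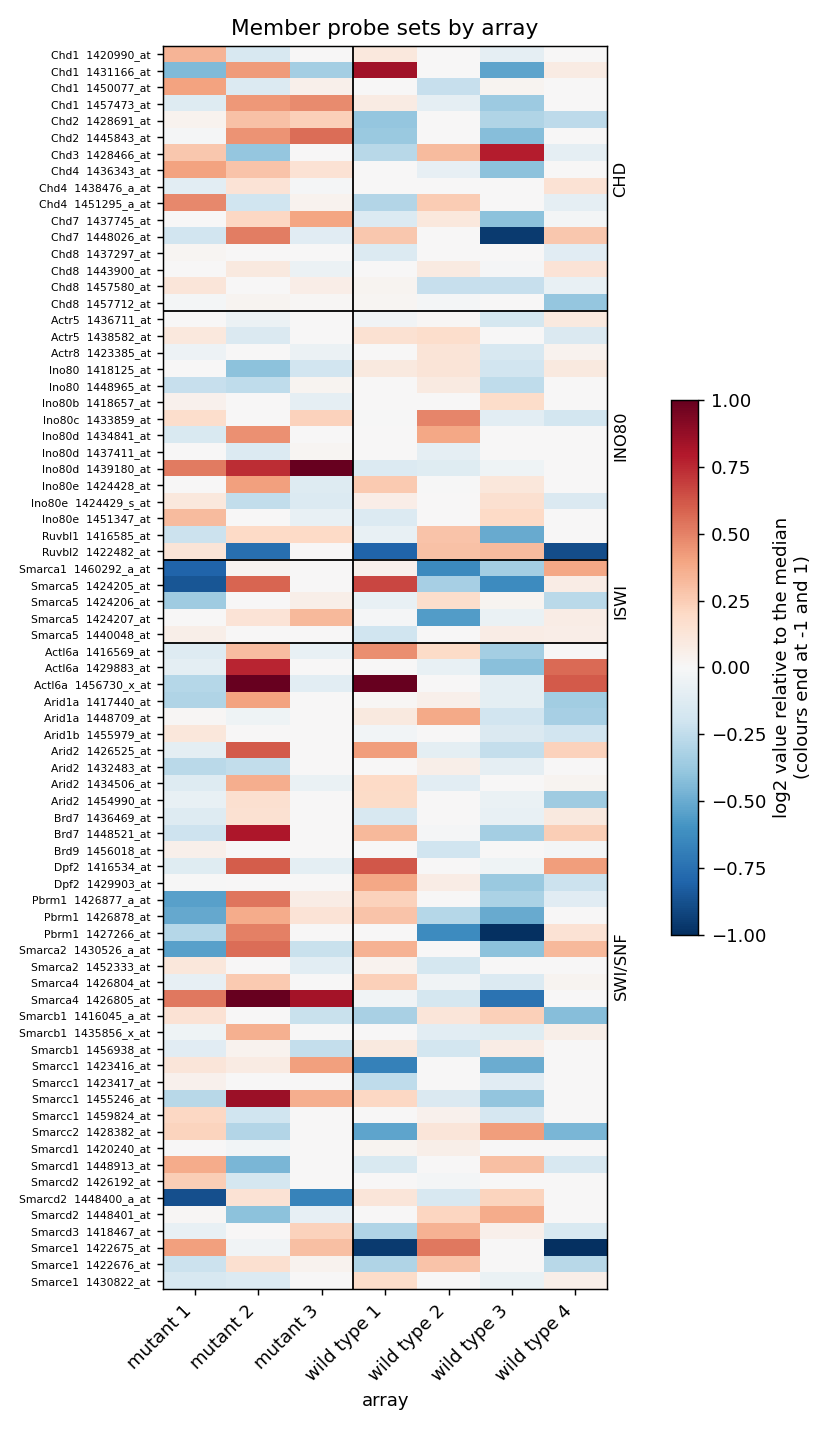
Log2 value relative to the probe set's median (colour, ends at -1 and 1) for the 75 member probe sets (rows, by family and gene) in the 3 mutant and 4 wild-type arrays (columns). The probe sets without overlap form isolated rows. Rows such as Actl6a 1456730_x_at and Dpf2 1416534_at are red in mutant replicate 2, wild-type replicate 1 and wild-type replicate 4.

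By role, the 11 catalytic ATPases of the list had 27 probe sets, of which 17 differed in the positive direction and 3 did so without overlap. The 23 genes of other subunits had 48 probe sets, 32 of them positive and 2 without overlap. The median difference was 0.05 in each class, and the classes were not tested against each other. All 5 lay in the level classes from 4 upward, which hold 59 of the 75 member probe sets and in which 1.29% of all probe sets lay above and 0.721% below without overlap.

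Where a member gene had several probe sets, their differences often lay on both sides of 0. Of the 23 member genes with 2 or more probe sets, 8 had all their differences of 1 sign, or 34.8%, against 40.3% of the 9010 such genes in the table. The range between a gene's highest and lowest difference had a median of 0.25 in these 23 genes and 0.18 in the 9010. The ranges of Smarca4 and Ino80d, 0.99 and 0.93, are made by the leading probe sets for which these genes were chosen, and nothing is read from them. The 5 probe sets without overlap had 9 companions on the same genes, none of which separated the groups, with differences from -0.03 to 0.53 and a median of 0.04. Over the whole array 339 probe sets lay above without overlap in genes with several probe sets, and for 9.44% of them another probe set of the gene did so too. The companions in the table, 884 in all, had a median difference of 0.03, beside 0.04 for the members' companions. Probe sets that themselves lay above without overlap are not counted among these companions. Leaving them out can only lower the median of the table, so nothing is read from this comparison.

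Other subunits of the same complexes were examined as a second list of 67 genes with 188 probe sets. In limma's fit 0 of them had an adjusted p under 0.05. The median difference was 0.01, between 0.05 for the members and -0.01 for all probe sets. Of the 188, 103 were positive, where 47.4% of the whole table were. Without overlap, 3 (1.60%) lay above and 4 below, beside 1.06% above and 1.02% below in the whole table. Nothing is read from these counts. Those above were single probe sets of Atrx, Bptf and Baz2b. Atrx is a remodeller of heterochromatin, Bptf the large subunit of the NURF form of ISWI and Baz2b a bromodomain partner of ISWI. In the Atrx and Baz2b probe sets the lowest array lay from 2 to 4 on the log2 scale.

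Atrx 1420947_at measured 0.26, 0.47 and 0.65 in mutant and 0.00, -0.09, -0.02 and -0.09 in wild type, a difference of 0.51 ± 0.10 (SE). Its wild-type arrays lay as close together as those of Ino80d 1439180_at. The 7 Atrx probe sets had a median difference of 0.03, so this gene repeated the pattern of a lone probe set. Bptf 1427310_at measured 0.01, 0.48 and 0.46 in mutant and 0.00, -0.24, -0.61 and -0.06 in wild type, a difference of 0.54 ± 0.18 (SE). Here mutant replicate 1 lay only just above wild-type replicate 1. The median over the 4 Bptf probe sets was 0.18. Baz2b 1448007_at differed by 0.58 ± 0.25 (SE), with a median of 0.01 over 5 probe sets. Without mutant replicate 2, which measured 0.99, its difference was 0.28, and it was 1.07 within the 3 arrays that stood apart and 0.39 within the other 4.

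The 4 probe sets below were single probe sets of Hdac1, a deacetylase of NuRD, at -0.31 ± 0.13 (SE), Shprh at -0.25 ± 0.12, Chd5 at -0.22 ± 0.10 and Dpf3 at -0.14 ± 0.08. Hdac1 and Chd5 had 1 probe set each. In the Chd5 probe set and in this Shprh probe set the lowest array lay from 2 to 4 on the log2 scale. The 5 Shprh probe sets had a median difference of -0.02, and the other Dpf3 probe set differed by 0.24, in the opposite direction. Hdac1 measured -0.04, -0.03 and -0.21 in mutant and 0.26, 0.00, 0.48 and 0.14 in wild type, and wild-type replicate 3 was the highest. Mbd3, a NuRD subunit, was among the 4 smallest p-values of this list, with a difference of 0.42 ± 0.16 (SE) and overlapping groups. Limma's adjusted p was 1.00 for every one of these genes. Over the 30 probe sets of the 13 further CHD and NuRD genes, 17 differences were positive and 13 negative, with a median of 0.04.

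**Figure D4:**
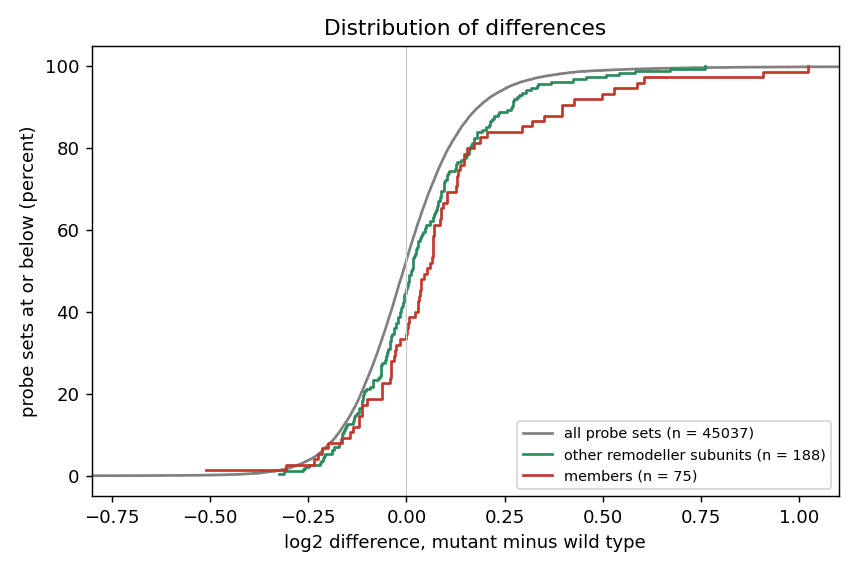
Cumulative share of probe sets, in percent (vertical axis), at or below each log2 difference, mutant minus wild type (horizontal axis), for the 75 members, 188 probe sets of other remodeller subunits and all 45037 probe sets. The curves cross 50 percent at 0.05, 0.01 and -0.01, and the members' curve runs lowest above 0.25.

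Markers of other cell types were set beside these results. All 7 endothelial and mural markers measured higher on average in mutant muscle, with list means of 0.12, 0.10 and 0.12 in mutant and -0.10, 0.04, -0.21 and -0.25 in wild type, and all 7 lay at 4 or above on the log2 scale. Of the 6 measured adipocyte markers 0 were higher in mutant muscle, with a list difference of -0.35 and overlapping list means of 0.18, -0.29 and -0.15 in mutant and -0.92, 0.75, 1.27 and -0.07 in wild type. Wild-type replicate 3, the lowest array of Smarca4 1426805_at, Chd4 1436343_at and Pbrm1 1427266_at, had the highest adipocyte (1.27), leukocyte (0.54) and fibroblast (1.02) marker means and the lowest muscle fibre mean (-0.37) of the 7 arrays. Its Gapdh control probe sets, which bear on RNA quality, had a 5 prime minus 3 prime value of -0.55, against -0.04 to 0.09 in the other arrays, while for beta-actin it was 0.12 against -0.14 to 0.12. The 18S RNA controls stood at 3.19 in mutant replicate 1 and at -0.77 to 0.56 in the others. The part of these markers in the members' differences was not tested. In whole muscle, fewer cells of a type and less RNA per cell cannot be told apart. Without wild-type replicate 3 the median difference of the members was 0.02, as it was without mutant replicate 2, and the differences of Smarca4 1426805_at and Ino80d 1439180_at were 0.85 and 0.92.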

How the data were processed

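The deposited table holds log2 values per probe set on 7 single-colour arrays, and the authors expressed them relative to each probe set's median, as the values show: that median was exactly 0 in all 45101 probe sets. Per the submitters' processing notes, GCOS 4.0 was used. How probes were summarised and arrays scaled, and the log base, are not given in the sources used here. Base 2 is an inference from the size of the recovered levels. In 56.4% of probe sets 2 or more arrays share the median exactly, as in 34 of the 75 members, so a 0.00 in several arrays is a tie. The level class is that of the lowest array, read from the single-precision spacing of values of at least 0.01.

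Symbols came from the platform annotation and were updated by Entrez identifier against RefSeq GRCm38.p6 (34754 of 34958 matched). Probe sets with several symbols were left out of the lists. Limma 3.58.1 in R 4.3.3 (lmFit, eBayes) compared 3 mutant with 4 wild-type arrays, two-sided, for 45037 probe sets without the 64 controls, with Benjamini-Hochberg adjustment over all of them and no filter on dim probe sets. Errors of differences are limma's SE. The number of arrays limits the precision. On simulated data for this comparison, with 45037 probe sets, 12% of probe sets given a log2 shift of 0.5 were called. At shifts of 1, 2 and 3 the shares were 66%, 90% and 88%, and 6 unshifted probe sets were called. In the measured table the main fit called 0 probe sets, and 890 had an unadjusted p under 0.05. Smarca4 1426805_at, with a difference of 1.02, was not called. The shares describe the simulated data and cannot be read as what the fit could detect in the measured arrays.

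The members, the other remodeller list and the marker lists were chosen with earlier results of these data known. Values per array are given for all Ino80d and Smarca4 probe sets, for those without overlap and, in each family, for the 2 with the smallest p in each direction. Of the other remodellers, those without overlap and the 4 with the smallest p are named. Further members (Smarce1, Pbrm1, Smarcd3, Smarca2, Ruvbl2 and Actl6a, and Chd1, Chd2, Chd7 and Smarcc1 in further probe sets) were described after their values were seen. Alternatives were quantile normalization, gene-level means, a level filter, probe set kinds, robust eBayes, age, a replicate block and leaving out each array. The division of the arrays was added after the data were seen. For arrays with the same replicate number, deviations from the group means correlated at -0.48, -0.31 and 0.15. The arrays numbered 1, and those numbered 2, lie on opposite sides of the division. These correlations therefore cannot decide whether the numbers pair the arrays, and the main fit used no pairing.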

Additional observations from a re-analysis of the deposited data

Results flagged for a closer look

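In 4 of the 27 named probe sets 1 wild-type array lay far from the other 3 by Dixon's test. Chance flags about 1 of 20 groups without ties, but in 3 of the 4 the other arrays are tied at 0.00, where any other value is flagged, so that rate does not apply to them. Ino80 1418125_at was lowest in wild-type replicate 3, at -0.19 against 0.10 to 0.13. Ino80d 1434841_at was highest in wild-type replicate 2, at 0.39, and Ino80d 1437411_at was lowest there, at -0.087, where the other 3 arrays were tied at 0.00. Dpf3 1441659_at was highest in wild-type replicate 1, at 0.18, with the other 3 tied at 0.00. The wild-type arrays of the 5 member probe sets without overlap were not among these.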

How the results depend on the processing

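The table gives no signal over background, and the number of arrays limits the precision. Limma called 0 probe sets under each alternative in which it was run, for the members, the other remodellers and the whole table, with 890 probe sets at an unadjusted p under 0.05 and 841 with robust eBayes. The replicate block gave 388 such probe sets, 0 calls and a median member difference of 0.03, and whether the numbers pair the arrays is not known. With the division of the arrays as a block there were 2743, again with 0 calls and a smallest adjusted p of 0.785. The number of members above without overlap, 5, was 5 to 10 when 1 array was left out (10 without mutant replicate 1, 8 without wild-type replicate 2) and 3 genes with gene values from the highest level class. The number below, 0, was 0 to 4 when 1 array was left out, with 4 without mutant replicate 2, and 1 gene with gene values over all probe sets. Fewer arrays make non-overlap more frequent, and over the whole array 1718 probe sets lay above without mutant replicate 1 against 477. The median member difference, 0.05, was 0.02 to 0.06 when 1 array was left out, 0.11 within the 3 arrays that stood apart and 0.02 within the other 4. That of the other remodellers was -0.0026 to 0.031 when 1 array was left out and 0.074 within the 3 arrays that stood apart. Of the 27 named probe sets, up to 7 changed sign under an alternative, the most with gene values from the highest level class, where a gene's probe sets share 1 value. The cause was not tested.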
